A study of Mus musculus with 2 samples.

Results

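Mir103-1, Mir103-2 and Mir107 are the microRNA genes that lie within introns of the pantothenate kinase genes Pank3, Pank2 and Pank1. Their levels were read from microRNA sequencing of mouse embryonic hearts at day 10.5, in 2 libraries. The rule asked for every row whose Ensembl identifier maps to these symbols in GENCODE M21, and it found all 3 members among 1973 listed microRNA genes. The mice were of strain B6NCrl, the pools held healthy embryos of mixed sex, and the labels name no treatment and no altered allele. Replicate 1 came from 69 embryos and replicate 2 from 51, so each value is a mean over pooled animals. There is 1 group, and the comparisons are between genes and between the replicate libraries.

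Pantothenate kinases carry out the rate-limiting step of coenzyme A synthesis from vitamin B5. A vertebrate microRNA gene sits in each of these hosts, and the microRNAs are thought to be made from the host transcript. miR-103 and miR-107 act mainly through their 3p arms and are known as regulators of insulin sensitivity through caveolin-1 and as repressors of Dicer. They belong to a wider group with miR-15, miR-16, miR-195, miR-322 and miR-503, whose arms carry the letters AGCAGC close to the 5′ end.

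The mature arms show how little separates the members, and they are given here 5′ to 3′ from RefSeq (GRCm38.p6), with the seed (bases 2 to 8) in capitals.
miR-103-3p, from Mir103-1 and from Mir103-2: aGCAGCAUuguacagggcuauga
miR-107-3p, from Mir107: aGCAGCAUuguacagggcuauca
miR-103-1-5p: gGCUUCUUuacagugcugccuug
miR-103-2-5p: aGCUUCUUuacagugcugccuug
miR-107-5p: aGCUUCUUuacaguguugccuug
All the arms are 23 bases long. The 3p arms share the seed GCAGCAU and the 5p arms share GCUUCUU, and each seed occurred in 3 of 1738 arm entries of the RefSeq table, those of the members. Counted from 1 at the 5′ end of the arm, miR-103-3p and miR-107-3p differ by G22C alone. The 5p arms of Mir103-1 and Mir103-2 differ by G1A, those of Mir103-2 and Mir107 by C16U, and those of Mir103-1 and Mir107 by both G1A and C16U.

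The hairpins differ mostly outside their arms. They are printed whole, with the 5p and 3p arms in capitals, because reads can be told apart only where these sequences differ.
Mir103-1 hairpin: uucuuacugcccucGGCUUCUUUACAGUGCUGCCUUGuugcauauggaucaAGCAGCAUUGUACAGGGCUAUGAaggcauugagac
Mir103-2 hairpin: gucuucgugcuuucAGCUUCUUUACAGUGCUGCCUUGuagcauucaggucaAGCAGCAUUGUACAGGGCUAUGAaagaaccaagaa
Mir107 hairpin: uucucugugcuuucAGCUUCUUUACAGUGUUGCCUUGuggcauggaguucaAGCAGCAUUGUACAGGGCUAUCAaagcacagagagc
Compared base by base without gaps over 86 positions, Mir103-2 and Mir107 were 84.9% identical, and Mir103-1 was 80.2% identical to each of them. Of the 17 differences between Mir103-1 and Mir103-2, 1 lay in the 5p arm and 0 in the 3p arm. Of the 13 between Mir103-2 and Mir107, each arm held 1. The longest stretch common to Mir103-1 and Mir103-2 had 27 bases and covered the whole 3p arm, 3 bases before it and 1 after it. Mir107 shared 24 bases with each of them, ending at base 21 of the 3p arm.

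**Figure D1:**
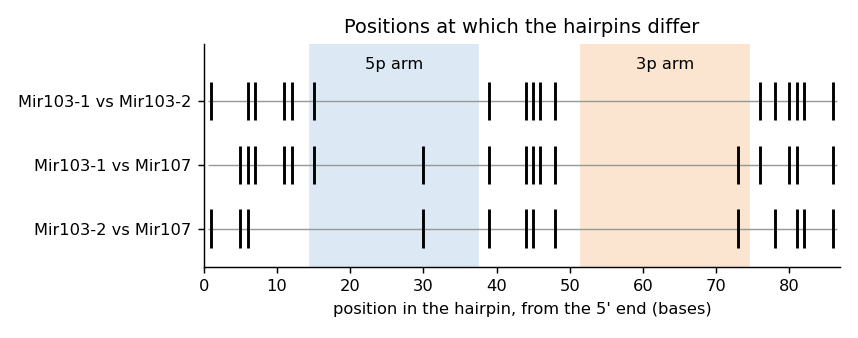
Position in the hairpin from its 5′ end, in bases, is on the horizontal axis, and each row compares a pair of hairpins without gaps. Vertical marks stand for positions that differ, blue shading for the 5p arm and orange shading for the 3p arm. Few marks fall in the shaded arms, and the row of Mir103-1 and Mir103-2 has 0 marks in the 3p arm.

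The genes also share their place within 7-exon transcripts of the hosts. Mir103-1 (ENSMUSG00000065553.1) lies on the plus strand of chromosome 11, 35782396 to 35782481 (mm10), in intron 5 of the 7-exon Pank3 transcript, 688 bases after the upstream exon. Mir103-2 (ENSMUSG00000065563.1) lies on the plus strand of chromosome 2, 131288052 to 131288137, in intron 5 of the 7-exon protein-coding Pank2 transcript, 454 bases after that exon. Mir107 (ENSMUSG00000065594.1) lies on the minus strand of chromosome 19, 34820687 to 34820773, in intron 5 of both 7-exon Pank1 transcripts, 326 bases after the exon. Each microRNA gene is on the strand of its host and overlaps no exon of it. The other Pank2 and Pank1 transcripts vary. Some hold the hairpin in an intron of another number, and some do not span it. In a 4-exon protein-coding Pank2 transcript it lies in intron 2, 13788 bases after the upstream exon.

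Mir107 held most of the counts assigned to this family, Mir103-2 far fewer and Mir103-1 the fewest. Reads that map to several places are not in these counts. Mir107 had 4002 own-strand counts in replicate 1 and 5987 in replicate 2. On the CPM scale, in which all own-strand gene counts of a library add up to 1e+06, this was 961 and 1250 CPM, a mean of 1106 ± 204 (SD, n = 2). Mir107 was higher in replicate 2, and it ranked 104th and 74th of the 1973 genes.

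Mir103-2 had 337 and 236 counts, which was 80.9 and 49.3 CPM, a mean of 65.1 ± 22.4 (SD, n = 2). It was lower in replicate 2 and ranked 221st and 231st. Mir103-1 had 28 and 37 counts, which was 6.72 and 7.73 CPM, a mean of 7.23 ± 0.708 (SD, n = 2). Its libraries lay close together, but the counts allow much wider limits, with 95% exact Poisson intervals of 4.47 to 9.72 CPM in replicate 1 and 5.44 to 10.6 CPM in replicate 2. These intervals cover counting error only, and neither amplification nor other variation between libraries.

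Across the libraries the order of the members was the same, with no overlap between any pair of them. All 3 had at least 10 counts in each library and so entered the tests below. None of them had an opposite-strand count in either library, so counts over both strands were the same as own-strand counts. Together the members held 4367 and 6260 counts, 0.105% and 0.131% of all own-strand gene counts. In replicate 1, Mir107 made up 91.6% of the members' assigned counts, with a 95% exact interval of 90.8 to 92.4. Reads that map to several places are not in this share. Its share was larger in replicate 2, at 95.6% (95.1 to 96.1).

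These counts do not give the level of miR-103-3p, because the deposited tables enter reads that map to several places in a row of their own. That row held 23.3% of reads in replicate 1 and 23.5% in replicate 2. A read of 18 to 21 bases from the start of a 3p arm matched all 3 member hairpins. At 22 to 24 bases, such a read from Mir107 matched Mir107 alone, while a read of miR-103-3p still matched both Mir103 hairpins. At 25 bases, past the end of the arm, each matched its own hairpin only. Reads of 18 to 25 bases from the start of a 5p arm matched a single hairpin throughout. For the Mir103 genes this rests on base 1 of the arm. A read that starts past it and ends within the arm matches both. The labels put the RNA size below 30 bases, and how many reads of each length the libraries held was not analysed here.

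The part of each hairpin that can be assigned by an exact match was therefore larger for Mir107. Of its windows of 22 bases, 61 of 66 (92.4%) occurred in no other annotated hairpin, against 57 of 65 (87.7%) in Mir103-1 and 55 of 65 (84.6%) in Mir103-2. At 18 bases the shares were 81.4%, 76.8% and 68.1%. The search covered RefSeq and GENCODE hairpins on both strands. No window of any length from 18 to 25 matched a hairpin outside the family. These are exact matches between hairpins, with flanks, loop and arms weighed alike, so the shares are not shares of reads. Neither the mismatches the aligner allowed nor matches elsewhere in the genome were tested, and the part of shared reads in the level differences was not tested.

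**Figure D2:**
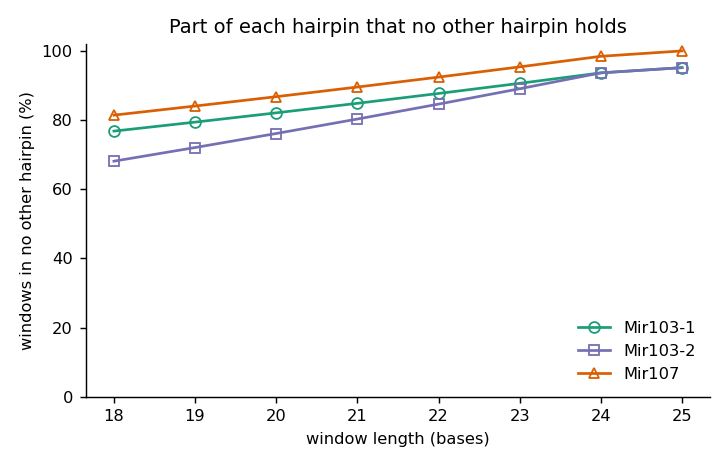
Window length in bases is on the horizontal axis, and the percentage of a hairpin's windows found in no other annotated hairpin is on the vertical axis, with a line and marker for each member. Mir107 has the highest share at every length and reaches 100%, while Mir103-1 and Mir103-2 stay at 95.2% at 25 bases.

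Within a library, the assigned counts of Mir107 exceeded those of both Mir103 genes together by a wide margin, and the margin differed between the libraries. Each Mir103 count was matched by 11.0 Mir107 counts in replicate 1, with a 95% exact interval of 9.85 to 12.2. In replicate 2 it was matched by 21.9 (19.4 to 24.8). The log2 ratio averaged 3.95 ± 0.71 (SD, n = 2). The intervals do not overlap, and this ratio does not depend on how the libraries are scaled. It compares unlike sets of reads, since 22 to 24 bases of miR-103-3p match both Mir103 hairpins and those of miR-107-3p match Mir107 alone. The part of this in the ratio was not tested. With 2 libraries an exact sign-flip test cannot give a two-sided p below 0.5, so the ratio was not tested against 0.

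The Mir103 copies, which yield the same 3p arm, were counted unequally. Mir103-2 had 12.0 counts for each Mir103-1 count in replicate 1 (8.18 to 18.4) and 6.38 in replicate 2 (4.50 to 9.28), with intervals that overlap. Among 18 pairs of tested genes that share an identical arm, the higher copy exceeded the lower by a median of 3.91-fold, from 1.01-fold for Mir135a-1 and Mir135a-2 to 40.6-fold for Mir181b-2 and Mir181b-1. The Mir103 pair, at 9.01-fold, was the fifth highest, between Mir7-1 and Mir7-2 at 16.0-fold and Mir218-2 and Mir218-1 at 6.61-fold. Unequal counts of copies were thus seen in other pairs too.

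Set beside genes of the same kind, Mir103-2 was near the middle and Mir103-1 low. Of the 424 tested genes, 382 (90.1%) have an arm in the RefSeq table. The 47 with an arm identical to that of another hairpin had a median of 50.7 CPM, with quartiles of 15.2 and 129 CPM. Mir103-2 lay between these quartiles and Mir103-1 below the lower one. The 335 with no identical arm had a median of 111 CPM and quartiles of 8.48 and 1071 CPM, and Mir107 lay just above the upper one.

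**Figure D3:**
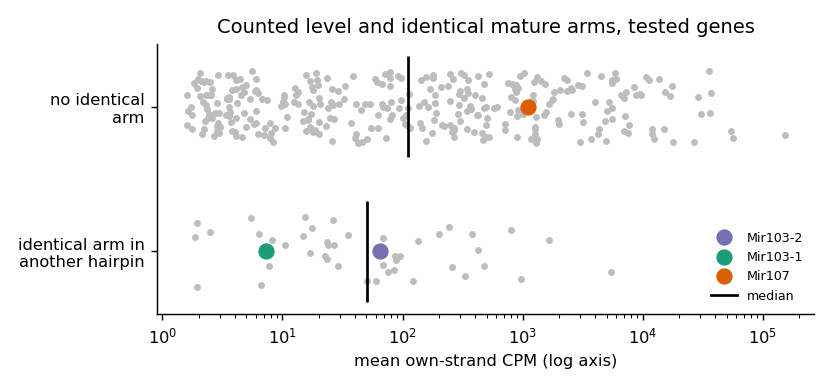
Mean own-strand CPM is on the horizontal log axis, and tested genes are split by whether a mature arm is identical to that of another hairpin, with vertical scatter for legibility only. Each grey point is a gene, black lines are medians (50.7 and 111 CPM), and coloured points are the members, of which Mir107 lies to the right of its median and Mir103-1 to the left.

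The replicate libraries differed for Mir107 and Mir103-2, in opposite directions. Each gene with at least 10 counts in a library was tested with an exact two-sided binomial test of replicate 2 against replicate 1, scaled by TMM, and p-values were adjusted by Benjamini-Hochberg over all 424 genes. This test compares these libraries beyond counting error and not conditions. Mir107 was higher in replicate 2, with a log2 ratio of 0.65 (95% exact interval 0.60 to 0.71, adjusted p = 1.55e-110 by the exact binomial test). Mir103-2 was lower, with a log2 ratio of -0.44 (-0.69 to -0.20, adjusted p = 0.000659 by the exact binomial test). Mir103-1 had a log2 ratio of 0.47 and did not pass (-0.27 to 1.24, adjusted p = 0.291 by the exact binomial test), and at 28 and 37 counts its interval takes in 0 and the value of Mir107.

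Passing this test was common, so 2 of 3 members is close to the background. Of all tested genes 61.6% passed, 30.4% as higher and 31.1% as lower in replicate 2. The median size of the log2 ratio over tested genes was 0.47. A log2 ratio at least as large in either direction as that of Mir107 was found in 33.0% of tested genes, against 52.6% for Mir103-2 and 50.7% for Mir103-1. Scaling by total counts lowers every log2 ratio by 0.27, and the values were then 0.38 for Mir107, -0.71 for Mir103-2 and 0.19 for Mir103-1, and the same 2 members passed in the same directions. Under that scaling 15.6% of all tested genes were higher and 46.2% lower in replicate 2.

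**Figure D4:**
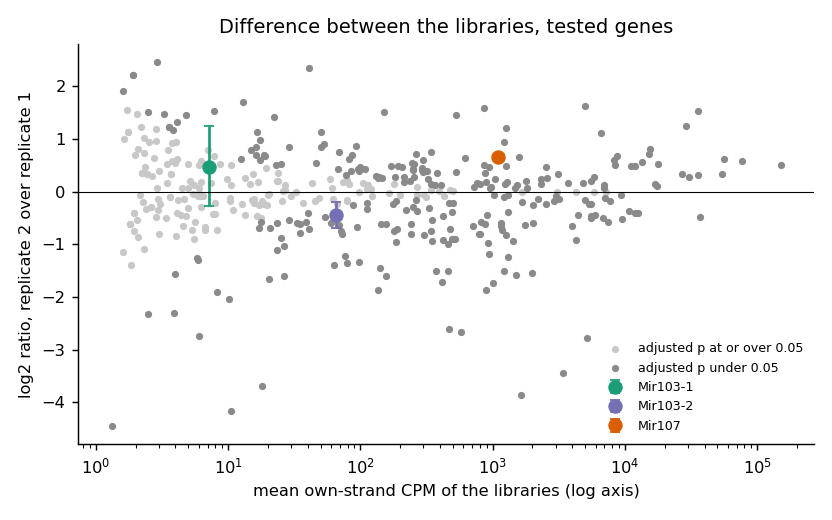
Mean own-strand CPM of the libraries is on the horizontal log axis and the TMM-scaled log2 ratio of replicate 2 over replicate 1 on the vertical axis, for the 424 tested genes. Dark grey points passed at an adjusted p under 0.05, light grey points did not, and bars on the coloured members are 95% exact intervals. Mir107 sits above 0 and Mir103-2 below it, each well within the cloud of other genes, and the bar of Mir103-1 crosses 0.

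Tissue markers moved between the same libraries. Of all tested genes, 30.4% were higher and 31.1% lower in replicate 2, or 15.6% and 46.2% with total counts. The listed heart muscle markers Mir208a, Mir208b and Mir499 all lie in myosin genes. They were present and summed to 34740 CPM in replicate 1 and 69047 CPM in replicate 2. Of these, 3 of 3 were higher in replicate 2. The muscle microRNA gene Mir1a-1, not on the list, had 17 and 15 counts and did not pass. Mir133a-2, also not on it, had 1 count in each library and was not tested. Reads that map to several places are left out of these counts. The epithelial markers Mir200b, Mir200c, Mir205 and Mir429 summed to 6010 and 1714 CPM, with 4 of 4 lower in replicate 2. The liver marker Mir122 had 3078 and 175 CPM and was lower. Red blood cell markers summed to 1160 and 1713 CPM, with 2 of 3 higher, and with 1 higher (Mir451a), 1 lower (Mir144) and Mir486 not passing under total counts. Mir143 and Mir145a, listed as smooth muscle markers, had 69745 and 86022 CPM together, with 2 of 2 higher. Which cells of these hearts carry them was not tested. The endothelial marker Mir126a had 53306 and 55504 CPM and was higher. Leukocyte markers had 454 and 332 CPM, with Mir223 lower and Mir155 higher, and under total counts Mir155 did not pass. The calls of the other marker lists were the same under total counts. No marker was at 0. The part of tissue composition in the members' differences was not tested, and in pooled tissue fewer cells of a type and less RNA per cell cannot be told apart.

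The genes nearest to each member in level were found by distance over log2(CPM + 1) in the 2 libraries. For Mir107 they were Mir451a with 947 and 1509 CPM (distance 0.27), Mir501 with 1166 and 1341 CPM (0.30) and Mir27b with 1045 and 1026 CPM (0.31). For Mir103-2 they were Mir668 with 85.3 and 51.4 CPM (0.095), Mir138-1 with 85.0 and 51.8 CPM (0.099) and Mir218-2 with 90.1 and 48.0 CPM (0.16). Mir138-1 and Mir218-2 also share an arm with a second gene. For Mir103-1 they were Mir7018 with 27 and 37 counts, Mir1969 with 28 and 43 and Mir367 with 32 and 34. With 2 libraries such nearness describes levels only.

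The wider miR-15 and miR-107 group was next compared, since its arms resemble those of the members at the 5′ end. AGCAGC was searched at base 1 or 2 of the arms as written, and it stood there in 15 of 1738 arm entries (0.863%). It stood at base 1 in 3, all from the members, and at base 2 in the other 12. The arms of the counted genes are shown with the seed in capitals, and in them the seed begins with the A of the motif, which is shifted by a base from the members.
miR-15a-5p: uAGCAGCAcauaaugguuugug
miR-15b-5p: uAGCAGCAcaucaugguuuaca
miR-16-5p, from Mir16-1 and Mir16-2: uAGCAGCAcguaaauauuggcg
miR-195a-5p: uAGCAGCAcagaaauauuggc
miR-322-5p: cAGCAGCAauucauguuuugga
miR-503-5p: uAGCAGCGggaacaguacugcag
The members' seed GCAGCAU was therefore theirs alone in the table, while miR-15a, miR-15b, miR-16, miR-195a and miR-322 share AGCAGCA.

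By assigned counts Mir107 had a middle level in this group, and the Mir103 genes were the lowest of those tested. Reads that map to several places are left out of these counts. This bears on miR-103-3p and also on miR-16-5p, which Mir16-1 and Mir16-2 share. The order is therefore not that of the mature microRNAs. Of 15 names in the list, chosen with earlier results known, 12 were listed and 10 were tested. Not listed were the names Mir497, Mir497a and Mir424, of which the motif search found only Mir497, with the arm miR-497a-5p. CPM was not divided by length here, because the reads come from arms of nearly the same length. Mir322, of the X-linked cluster it forms with Mir503, was far above the rest with 49444 and 62565 CPM. Mir15a had 3402 and 2649 CPM, and Mir503 had 2350 and 2678 CPM. Mir16-1 followed with 1822 and 1506 CPM and Mir15b with 1283 and 1178 CPM. Mir15a and Mir503 changed places between the libraries, as did Mir15b and Mir107, so these neighbours cannot be ranked at n = 2. Mir16-2 had 480 and 375 CPM and Mir195a 274 and 310 CPM, below Mir107 and above Mir103-2 in both libraries. Mir497b, on the list by name, had 5 and 1 counts, and the motif search found no arm of it. Mir195b had 0 counts, which allows up to 3 counts, or 0.721 and 0.626 CPM.

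**Figure D5:**
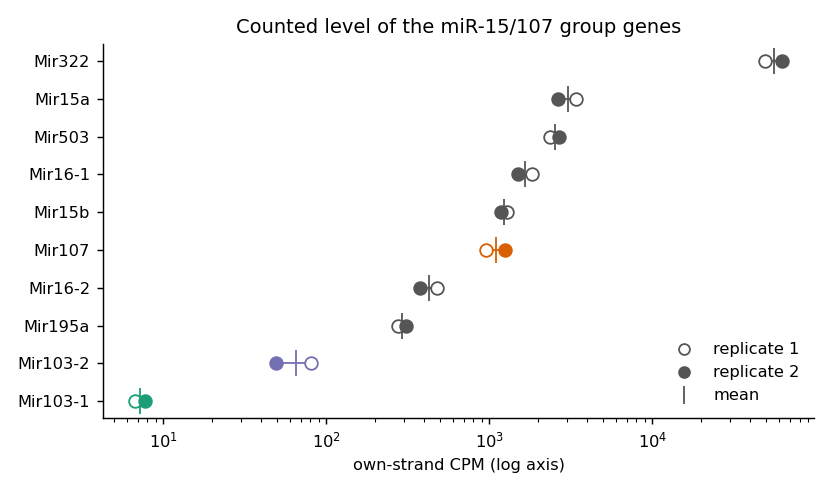
Own-strand CPM is on the horizontal log axis and the tested genes of the miR-15 and miR-107 group are on the vertical axis, ordered by mean. Open circles are replicate 1, filled circles replicate 2 and ticks the means, and the members are coloured. Mir107 overlaps Mir15b, and Mir103-2 and Mir103-1 are at the bottom with means of 65.1 and 7.23 CPM.

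Between the libraries, Mir107 moved the same way as Mir322 and Mir503. Of the 7 tested genes of the group other than the members, 4 were higher in replicate 2, 1 was lower and 2 did not pass, against 30.4% higher and 31.1% lower of all tested genes. Mir322 had a log2 ratio of 0.61, Mir503 of 0.46 and Mir195a of 0.45, which were higher under both scalings (0.34, 0.19 and 0.18 with total counts). Mir15b was higher at 0.15 and lower at -0.12 with total counts, and Mir15a was lower at -0.09 and -0.36. Mir16-1 and Mir16-2 did not pass, and both were lower with total counts (-0.27 and -0.36). The median of the 7 genes was 0.15, against -0.01 over all tested genes, and it was -0.12 with total counts, against -0.29 over all tested genes.

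Other microRNAs within protein-coding hosts gave a second frame for the members' levels. Of 39 names in this list, also chosen with earlier results known, 36 were listed and tested, with a median of 878 CPM. By assigned counts Mir107 was above this median and Mir103-2 and Mir103-1 below it in each library. The highest were Mir335 of the imprinted gene Mest with 151298 ± 16851 CPM, the endothelial Mir126a of Egfl7 with 54405 ± 1554 CPM and Mir208b of the myosin gene Myh7 with 35502 ± 20457 CPM (SD, n = 2). Of the 36, 21 were higher in replicate 2, 6 lower and 9 did not pass, against 30.4% higher and 31.1% lower of all tested genes. Their median log2 ratio was 0.20, against -0.01 over all tested genes. With total counts 10 were higher, 15 lower and 11 did not pass, against 15.6% higher and 46.2% lower of all, and the median was -0.08, against -0.29.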

How the data were processed

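For each library the authors deposited a table of read counts per gene, from its own alignment to mm10 with GENCODE M4 models, per the labels and README texts. The aligner, adapter trimming and settings are not stated in the sources used here. Counts on the gene's own strand were used, in total 4163656 (replicate 1) and 4789068 (replicate 2). Only gene rows entered library sizes. The remaining rows held unmapped reads (26.3% and 25.5%), reads mapped to several places (23.3% and 23.5%) and reads on no gene's own strand (8.98% and 7.41%; 7.05% and 5.32% lay on no gene on either strand).

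Symbols and positions came from GENCODE M21, also on mm10. TMM factors came from edgeR 4.0.16, and exact tests and intervals of the replicate ratios from R 4.3.3. Within-library and Poisson intervals, and the total-count tests of the lists and markers, came from scipy 1.17.1. A prior count of 0.5 was added in log2 ratios. The test was run on simulated counts that varied by counting error only, so this run does not bear on other variation between libraries. Named were the members, the miR-15 and miR-107 group, the 3 nearest genes to each member, the 3 highest intronic genes and, chosen after their values were seen, copy pairs beside that of Mir103. The members and lists were chosen with earlier results of these data known. Alternatives were total counts or DESeq2 1.42.0 size factors as scaling, both strands, no filter, other prior counts, leaving out the most abundant gene, and each replicate alone.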

Additional observations from a re-analysis of the deposited data

How the results depend on the processing

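Beside the values with a replicate left out, 41 were recomputed under another setting for the members' levels, replicate ratios, counts of calls and the ratio of Mir107 to the Mir103 genes. Some had a fixed outcome, since prior counts do not enter the p-values and no opposite-strand count could change the ratio of Mir107. Of the 41, 40 kept direction and side of the threshold, moved by less than the spread between libraries or, as call counts, stayed near the main count. The exception was the mean level of Mir103-1, which was 8.52 CPM when the most abundant gene was left out of the library totals; this setting raises the CPM of every other gene through its smaller totals. The same 2 members passed with total counts, DESeq2 size factors, both strands and no filter, under which 262, 262, 270 and 254 genes passed. Calls higher in replicate 2 were 49.4% of all calls with TMM and 25.2% with total counts. With a replicate left out, which for a mean of 2 libraries gives the value of the other, the log2 ratio of Mir107 to the Mir103 genes was 3.45 or 4.45, Mir107 961 or 1250 CPM, Mir103-2 80.9 or 49.3 CPM and Mir103-1 6.72 or 7.73 CPM. Depth limits Mir103-1 most, since its 28 and 37 counts leave a log2 ratio between -0.27 and 1.24. No paired analysis was possible because the labels give 1 group.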
